A study of Mus musculus with 18 samples.

Results

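The genes described here make the prostaglandins and leukotrienes of the macrophage or receive the signal of prostaglandin E2. They were taken by symbol, older synonyms allowed, from the probe sets of an Affymetrix mouse array. Of 9 genes listed, 7 were measured, by 12 probe sets, among 12393 genes tested: Ptgs2, Ptges, Ptger2, Ptger4, Alox5ap, Ltc4s and Lta4h. Ptgs1 (cyclooxygenase-1) and Alox5 (5-lipoxygenase) had no probe set under these names in the array annotation used and were not analysed here. The cells were macrophages grown out of the marrow of C57BL/6 mice, 4 to 6 weeks old, in medium conditioned by L929 fibroblasts. Each of 6 groups had 3 arrays. CON cells stood in plain medium for 24 h, Silica cells with amorphous silica particles of 50 nm, and SPIO cells with iron oxide particles of 33 nm. The labels give a concentration of 25 mg/ml for both particles, a unit that could not be checked here. After washing, LPS, Silica-LPS and SPIO-LPS cells received 10 ng/ml of lipopolysaccharide (LPS), a bacterial cell wall component, for 4 h, while Silica and SPIO cells received fresh medium alone. The labels give no such time for CON, whose cells stayed without particles and LPS. The arrays of a group are labelled as biological replicates without a statement on separate animals. The p-values therefore weigh each difference against the spread of these cultures, which may be technical.

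Prostaglandins and leukotrienes are lipid signals made from arachidonic acid, which phospholipases cut from membranes. Cyclooxygenases turn it into prostaglandin H2, from which a microsomal synthase, the product of Ptges, makes prostaglandin E2, and the receptors EP2 and EP4 (Ptger2 and Ptger4) pass its signal on through cyclic AMP. In the other branch 5-lipoxygenase, helped by its activating protein (Alox5ap), makes leukotriene A4, which Lta4h turns into leukotriene B4 and Ltc4s into leukotriene C4. Macrophages are known to raise cyclooxygenase-2 and prostaglandin E2 output when they sense bacterial products.

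Each value below is a log2 signal, so a difference of 1 is a doubling. A gene was called changed in a comparison at an adjusted p below 0.05 (limma, Benjamini-Hochberg over all genes). Array medians lay between 6.22 and 6.43, and arrays of the same group correlated at 0.997 to 0.999 over probe sets. All 9 macrophage markers checked, Adgre1, Csf1r and Lyz2 among them, had group means of at least 7.35 in every group. In bulk RNA, fewer cells of a type and less RNA per cell cannot be told apart.

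After LPS Ptgs2 and Ptges, which act in turn to make prostaglandin E2, and the receptor gene Ptger4 were higher, and Ptger2, Alox5ap, Ltc4s and Lta4h were lower. All 7 genes measured were called in LPS against CON, 3 higher and 4 lower. Of all genes 58.2% were called, 22.2% higher and 36.1% lower. The arrays of the 2 groups overlapped for none of the 7, and did not overlap for 63.3% of all genes. The median difference over the 7 genes was -0.71, against -0.01 over all genes tested.

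**Figure D1:**
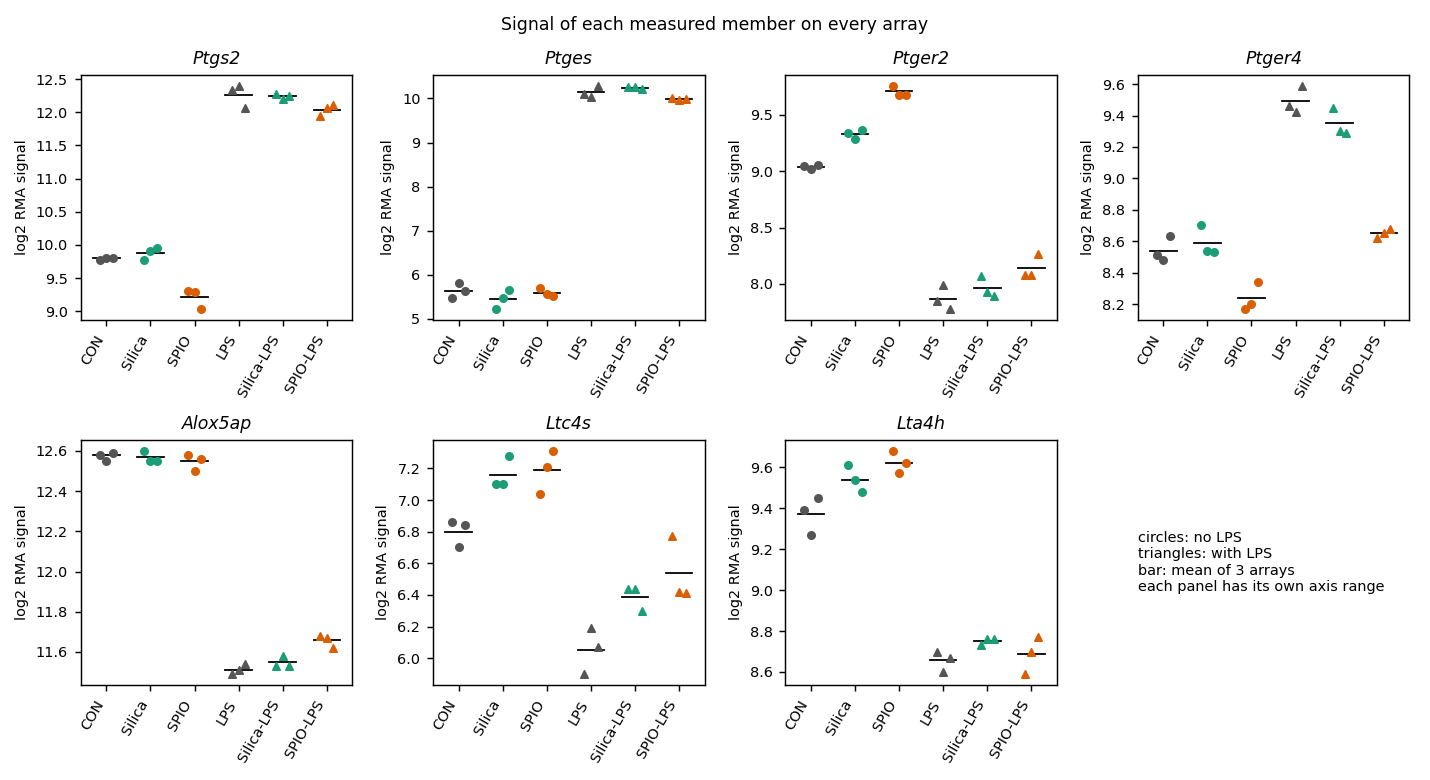
The log2 signal of each measured gene (vertical axis, its own range in each panel) is plotted for the 6 groups (horizontal axis), with 1 point per array and a bar at the mean of 3 arrays. Ptgs2 and Ptges stand high in all 3 groups with LPS, Alox5ap and Lta4h stand low there, and Ptger4 in SPIO-LPS (mean 8.65) lies near CON (8.54) and not near LPS (9.49).

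Ptgs2, which encodes cyclooxygenase-2, the inducible form of the enzyme, already gave a bright signal without LPS on the brighter of its probe sets. Its log2 signal was 9.78, 9.81 and 9.80 in CON and 12.33, 12.40 and 12.07 in LPS. Every LPS array stood above every CON array, and the difference was 2.47 ± 0.084 (SE, n = 3 per group; limma adjusted p = 2.94e-13), or 5.53-fold. Silica-LPS arrays read 12.27, 12.20 and 12.25 and SPIO-LPS arrays 11.95, 12.06 and 12.11, so Ptgs2 was high in each group that received LPS. From Silica to Silica-LPS it rose by 2.36 and from SPIO to SPIO-LPS by 2.83. In the order of group means (SPIO, CON, Silica, SPIO-LPS, Silica-LPS, LPS), CON and Silica overlapped, as did Silica-LPS and LPS. A second, dimmer Ptgs2 probe set read 6.13, 6.21 and 6.37 in CON and rose by 2.28 ± 0.082 in LPS against CON.

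Ptges, the gene of the synthase that acts after cyclooxygenase-2, rose most among the 7. It read 5.48, 5.81 and 5.64 in CON and 10.10, 10.04 and 10.29 in LPS, with no overlap. The difference was 4.50 ± 0.099 (SE, n = 3 per group; limma adjusted p = 1.30e-15), or 22.6-fold. After silica the rise with LPS was 4.79 and after SPIO 4.39. The 3 groups without LPS overlapped each other, and so did LPS and Silica-LPS. A second, dimmer Ptges probe set rose by 3.20 ± 0.12, or 9.21-fold, in LPS against CON, so the size of the rise differs between probe sets.

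The promoter sequences of these 2 genes are shown because both rose together after LPS. They are the 250 bases before the RefSeq start (GRCm38.p6), Ptgs2 at chr1:150099781-150100030 on the plus strand and Ptges at chr2:30903298-30903547 on the minus strand, with capitals at the matches to searched motifs. Ptgs2: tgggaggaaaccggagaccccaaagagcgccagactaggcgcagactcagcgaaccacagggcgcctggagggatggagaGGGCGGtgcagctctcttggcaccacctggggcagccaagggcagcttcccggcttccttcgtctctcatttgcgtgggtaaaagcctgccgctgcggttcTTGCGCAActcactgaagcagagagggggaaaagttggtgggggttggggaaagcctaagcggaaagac
Ptges: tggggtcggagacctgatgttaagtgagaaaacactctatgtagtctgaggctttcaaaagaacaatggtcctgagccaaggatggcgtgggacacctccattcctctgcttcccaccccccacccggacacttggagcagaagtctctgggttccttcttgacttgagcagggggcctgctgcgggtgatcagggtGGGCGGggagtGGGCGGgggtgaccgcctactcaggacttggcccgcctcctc

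A total of 9 motifs was searched on both strands in windows of 300 bases (250 before to 50 after the start), and each share below is of 32851 promoters. In Ptgs2 the capitals mark the C/EBP letters TTGCNNAA, found as TTGCGCAA 69 bases before the start (10.8% of promoters hold them), and the SP1 letters GGGCGG 170 bases before it (35.7%). Beyond the printed stretch, the CRE core TGACG (20.8%) lay 14 to 18 bases after the start on the minus strand, and overlapped an E-box, CACGTG (7.15%), at 17 to 22. In Ptges the capitals are SP1 matches that begin 53 and 42 bases before the start. The other letters searched were the full CRE TGACGTCA (1.79%), AP-1 TGANTCA (7.81%), EGR1 GCGNGGGCG (5.55%), the TATA box TATAAA (13.6%) and the NF-kB consensus (8.46%). None of these was found in the windows of the 6 measured genes with an entry, which says only that these letters are not there.

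The 2 receptors moved in opposite directions after LPS. Ptger4, the gene of receptor EP4, read 8.51, 8.48 and 8.63 in CON and 9.46, 9.42 and 9.59 in LPS. Each LPS array was above each CON array, by 0.95 ± 0.067 in the mean (SE, n = 3 per group; limma adjusted p = 3.15e-09), or 1.93-fold. Ptger2, the gene of receptor EP2, read 9.05, 9.02 and 9.06 in CON and 7.85, 7.99 and 7.78 in LPS. Every LPS array was below every CON array, and the mean fell to 44.4% of CON (-1.17 ± 0.064, adjusted p = 1.21e-10 in the same fit). The second Ptger4 probe set, dimmer than the first, rose by 1.36 ± 0.12.

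The promoters of the receptors are shown because these genes part ways with LPS and with SPIO. They are the 250 bases before the RefSeq start (GRCm38.p6), Ptger4 at chr15:5244188-5244437 on the minus strand and Ptger2 at chr14:44987861-44988110 on the plus strand, with SP1 matches in capitals. Ptger4: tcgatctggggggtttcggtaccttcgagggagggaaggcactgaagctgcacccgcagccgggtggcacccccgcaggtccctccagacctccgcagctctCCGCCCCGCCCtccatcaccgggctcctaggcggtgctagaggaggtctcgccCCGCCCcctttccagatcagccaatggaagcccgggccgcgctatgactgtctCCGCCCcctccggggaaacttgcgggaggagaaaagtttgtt
Ptger2: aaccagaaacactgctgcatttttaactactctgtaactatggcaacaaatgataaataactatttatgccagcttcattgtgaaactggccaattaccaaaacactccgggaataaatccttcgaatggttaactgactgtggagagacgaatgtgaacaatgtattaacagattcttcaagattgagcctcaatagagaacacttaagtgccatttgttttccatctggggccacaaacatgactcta

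Ptger4 held 4 SP1 matches, all on the minus strand (CCGCCC as printed). They begin 148, 143, 95 and 42 bases before the start, and the first and the second share a base. Ptger2 held none, and 66.8% of the printed Ptger4 bases were G or C against 38% in Ptger2. In Ptger2 the C/EBP letters were found 40 bases after the start, outside the printed stretch.

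The 3 leukotriene genes measured fell after LPS, Lta4h by its brightest probe set. Alox5ap, whose product presents arachidonic acid to 5-lipoxygenase, read 12.58, 12.55 and 12.59 in CON and 11.49, 11.51 and 11.54 in LPS. All LPS arrays lay below all CON arrays, at 47.9% of the CON signal (-1.06 ± 0.038, SE, n = 3 per group; limma adjusted p = 5.27e-13). The mean of Alox5ap over all arrays was at or above that of 98.1% of probe sets besides controls, so its signal lies in the upper range of the array.

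Ltc4s, the synthase of leukotriene C4, read 6.86, 6.70 and 6.84 in CON and 5.90, 6.19 and 6.07 in LPS. Its arrays did not overlap, and the mean fell to 59.5% (-0.75 ± 0.10, limma adjusted p = 8.16e-06, n = 3 per group). Lta4h, the hydrolase that yields leukotriene B4, read 9.39, 9.27 and 9.45 in CON and 8.70, 8.60 and 8.67 in LPS. It also did not overlap, at 60.9% of CON (-0.71 ± 0.059, adjusted p = 1.99e-08). The probe sets of Lta4h differed in direction: a dim one at group means of 3.23 to 4.09 fell by 0.51 ± 0.13, while another at 5.38 to 5.66 was higher by 0.25 ± 0.085 (adjusted p = 0.0192 over all probe sets).

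Ltc4s is also a gene of mast cells, and neutrophils use the leukotriene B4 branch. Of 9 mast cell markers, 8 had group means between 2.74 and 5.46 in all groups, Cpa3, Kit and Fcer1a among them. The exception was Hdc, which makes histamine, at 5.13 in CON and 7.25 in LPS. The mean over the 9 markers was 4.09 to 4.14 on CON arrays and 4.41 to 4.58 on LPS arrays. Of 9 neutrophil markers measured, 6 had means of at least 7 in every group. After LPS 3 of the 9 were higher and 3 lower, where 22.2% of all genes were higher and 36.1% lower. The mean over the 9 was 9.05 to 9.11 on CON arrays and 9.15 to 9.19 on LPS arrays. The part of other cells in these results was not tested.

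The response to LPS kept its direction in all 7 genes after either particle. All 7 were called, 3 higher and 4 lower, in Silica-LPS against Silica, where 57.3% of all genes were called, 21.5% higher and 35.8% lower. The same counts held in SPIO-LPS against SPIO, where 64.1% were called, 27.3% higher and 36.7% lower. In neither comparison did the arrays of any of the 7 overlap, as for 63.4% and 65.8% of all genes. The 3 comparisons rest on different arrays. Ptger4 rose by 0.95 after plain medium, 0.76 after silica and 0.41 after SPIO. Ptger2 fell by 1.17, 1.37 and 1.56 in the same order.

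**Figure D2:**
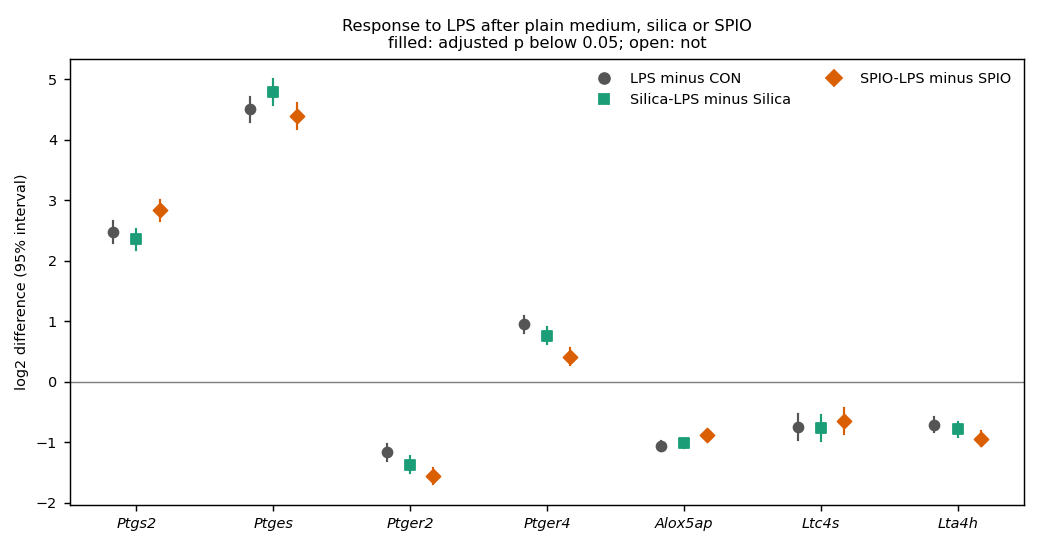
Points give the log2 difference made by LPS (vertical axis) for each of the 7 genes (horizontal axis) after plain medium (circles), silica (squares) or SPIO (diamonds), with 95% intervals from the fit. All points are filled, that is called, and the SPIO point of Ptger4 (0.41) lies below the other two (0.95 and 0.76).

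Whether a particle altered the response to LPS was tested as an interaction, the LPS difference after the particle minus that after plain medium. For SPIO, 2 of 7 genes were called, where 8.8% of all genes were. The rise of Ptger4 was smaller by 0.53 on the log2 scale (-0.53 ± 0.095, SE, n = 3 arrays in each of 4 groups; limma adjusted p = 0.00152), and the second Ptger4 probe set gave -1.03 ± 0.17. The fall of Ptger2 was deeper by 0.39 (-0.39 ± 0.090, adjusted p = 0.0106). Ptgs2 gave 0.36 ± 0.12 (adjusted p = 0.0753), Alox5ap 0.17 ± 0.053 (0.0582) and Lta4h -0.22 ± 0.083 (0.124), none of them called. Ptgs2 was called without array LPS 2 (adjusted p = 0.0396) and Alox5ap without array LPS 3 (0.0495). Without the dimmest genes both were called (Ptgs2 0.0427, Alox5ap 0.0229). Alox5ap was also called with a variance trend (0.00383) and with array weights (0.042). The second Ptgs2 probe set gave 0.14 ± 0.12 and was not called. For silica none of the 7 was called by limma, where 0.0161% of all genes were, and 1 had an unadjusted p below 0.05, Ptger2 (-0.20, 95% interval -0.39 to -0.01).

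SPIO alone, without LPS, moved 5 of the 7 genes, where 33.8% of all genes were called. The same 5 did not overlap between the groups, as 47.6% of all genes did not. The labels give Silica and SPIO cells 4 h in fresh medium after washing and no such time for CON. The part of this in the comparisons with CON, or in the interactions, was not tested. Ptgs2 read 9.31, 9.29 and 9.04 in SPIO against 9.78, 9.81 and 9.80 in CON. All 3 SPIO arrays were lower, at 66.7% of CON (-0.58 ± 0.084, SE, n = 3 per group; limma adjusted p = 5.33e-05). The second Ptgs2 probe set did not show this: it read 6.13, 6.28 and 6.10 in SPIO and 6.13, 6.21 and 6.37 in CON, a difference of -0.07 with a 95% interval of -0.24 to 0.11. The fall of Ptgs2 after SPIO therefore rests on the brighter of its probe sets.

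**Figure D3:**
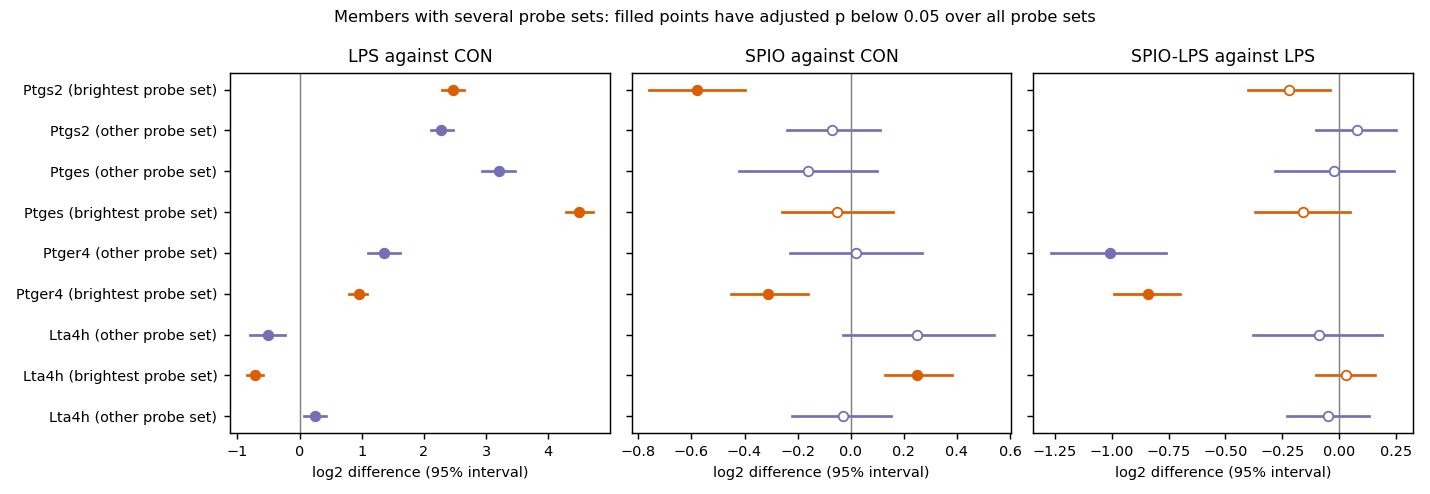
Rows are the probe sets of the 4 genes that have several, and points give the log2 difference with its 95% interval (horizontal axis) in 3 comparisons, filled where the adjusted p over all probe sets was below 0.05. In SPIO against CON the probe sets of Ptgs2 and of Ptger4 part, while in SPIO-LPS against LPS both Ptger4 probe sets lie well below 0 (-0.84 and -1.01).

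Ptger2 rose after SPIO. Its arrays read 9.76, 9.68 and 9.68, all above the CON arrays (9.05, 9.02 and 9.06), a difference of 0.66 ± 0.064 or 1.59-fold (limma adjusted p = 8.27e-07, n = 3 per group). Ptger4 read 8.17, 8.20 and 8.34, all below CON (8.51, 8.48 and 8.63), at 80.9% of CON (-0.31 ± 0.067, adjusted p = 0.00211). For Ptger4 the second probe set gave 0.02 ± 0.12, so the fall without LPS is seen with the brighter probe set alone. The call was lost with the mean of both (-0.14, adjusted p = 0.203).

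After SPIO alone Ltc4s and the brightest Lta4h probe set were higher, and Alox5ap was not called. Ltc4s read 7.04, 7.21 and 7.31, above all CON arrays (0.39 ± 0.10, 1.31-fold; limma adjusted p = 0.00812, n = 3 per group). Lta4h read 9.68, 9.57 and 9.62, also above all CON arrays (0.25 ± 0.059, 1.19-fold, adjusted p = 0.00317), while its probe set at 5.38 to 5.66 gave -0.03 ± 0.085. Alox5ap read 12.58, 12.50 and 12.56 and overlapped CON, with a difference of -0.03 (95% interval -0.11 to 0.05). Ptges read 5.69, 5.56 and 5.52 and overlapped CON as well (-0.05, interval -0.26 to 0.16). In SPIO against Silica, Ltc4s (0.03) and Lta4h (0.08) overlapped and were not called.

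With LPS, the receptor gene Ptger4 had the largest SPIO difference among the 7. SPIO-LPS arrays read 8.62, 8.65 and 8.68 and LPS arrays 9.46, 9.42 and 9.59. The groups did not overlap, and SPIO-LPS stood at 55.9% of LPS (-0.84 ± 0.067, SE, n = 3 per group; limma adjusted p = 9.86e-08). The second probe set read 5.11, 4.81 and 5.28 against 6.14, 5.98 and 6.13 in LPS, a difference of -1.01 ± 0.12, also without overlap. In the order of Ptger4 means (SPIO, CON, Silica, SPIO-LPS, Silica-LPS, LPS), SPIO-LPS overlapped Silica, a group without LPS.

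In SPIO-LPS against LPS 4 of the 7 genes were called, where 32.7% of all genes were. The arrays of 5 did not overlap, nor did those of 40.4% of all genes. Ltc4s read 6.77, 6.42 and 6.41 against 5.90, 6.19 and 6.07 in LPS. It was higher on every SPIO-LPS array, by 0.49 ± 0.10 or 1.4-fold (limma adjusted p = 0.00157, n = 3 per group), and overlapped CON. Ptger2 read 8.08, 8.08 and 8.27, above all LPS arrays (7.85, 7.99 and 7.78), by 0.27 ± 0.064 (adjusted p = 0.00371). Alox5ap read 11.68, 11.67 and 11.62 against 11.49, 11.51 and 11.54, a rise of 0.14 ± 0.038 (adjusted p = 0.00844). The calls of Ptger2 and Alox5ap were lost when these 2 groups were fitted alone (adjusted p = 0.0521 and 0.0968).

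Ptgs2 and Ptges did not pass the threshold in that comparison, Ptgs2 by a narrow margin. Ptgs2 in SPIO-LPS (11.95, 12.06 and 12.11) overlapped LPS (12.33, 12.40 and 12.07), with a difference of -0.22 (95% interval -0.40 to -0.04, limma adjusted p = 0.0534, n = 3 per group). It was called without array LPS 3 (-0.32, adjusted p = 0.00493), and also with a variance trend (0.0456), without the dimmest genes (0.0323), with cyclic loess (0.0275) and with array weights (0.0263). The second Ptgs2 probe set went the other way and was not called (0.08 ± 0.082, limma adjusted p = 0.544 over all probe sets). Ptges in SPIO-LPS (10.01, 9.96 and 9.98) lay just below all LPS arrays, by 0.16 in the mean (-0.16, interval -0.37 to 0.05), and Lta4h differed by 0.03 (interval -0.09 to 0.16).

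**Figure D4:**
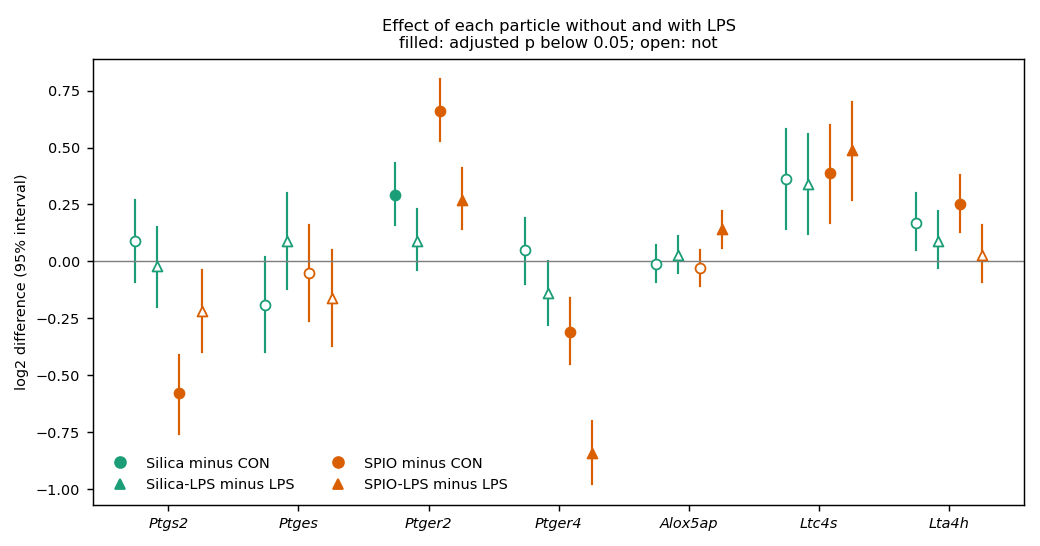
Points give the log2 difference (vertical axis) that each particle made in each of the 7 genes (horizontal axis), without LPS (circles) and with it (triangles), with 95% intervals, filled where the adjusted p was below 0.05. The silica points lie within 0.36 of 0, and the lowest point is Ptger4 in SPIO-LPS against LPS (-0.84).

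Silica left most of the 7 genes uncalled. In Silica against CON 1 of 7 was called, where 4.02% of all genes were. Ptger2 read 9.34, 9.29 and 9.37, all above CON (9.05, 9.02 and 9.06), by 0.29 ± 0.064 or 1.22-fold (SE, n = 3 per group; limma adjusted p = 0.0186). That call was lost without array CON 1, CON 2, Silica 1 or Silica 3, with adjusted p between 0.0505 and 0.0843. Ltc4s (7.10, 7.10 and 7.28) and Lta4h (9.61, 9.54 and 9.48) also lay above all CON arrays, by 0.36 and 0.17, at adjusted p of 0.0659 and 0.123. Such separation was seen in 24.9% of all genes. Ltc4s was called with a variance trend (limma adjusted p = 0.024), without the dimmest genes (0.0353) and with array weights (0.0251). Lta4h was called with the variance trend (0.0459). Ptgs2 differed by 0.09 (95% interval -0.09 to 0.27), Ptges by -0.19 (-0.40 to 0.02), Ptger4 by 0.05 (-0.10 to 0.19) and Alox5ap by -0.01 (-0.09 to 0.07).

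In Silica-LPS against LPS limma called 0 of the 7 genes, where 2.86% of all genes were called. At an unadjusted p below 0.05 there was 1, Ltc4s. The arrays of 2 did not overlap, Ltc4s and Lta4h, nor did those of 21.9% of all genes. Ltc4s read 6.44, 6.44 and 6.30, above all LPS arrays (5.90, 6.19 and 6.07), by 0.34 ± 0.10 (limma adjusted p = 0.0932). It was called with a variance trend (0.0428). Ptger4 read 9.45, 9.30 and 9.29 and overlapped LPS (-0.14, 95% interval -0.28 to 0.00).

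Set against each other without LPS, the particles differed at the receptors and at Ptgs2. In SPIO against Silica 3 of 7 genes were called, where 26.1% of all genes were. The arrays of these 3 did not overlap, nor did those of 40.5% of all genes. Ptgs2 was lower after SPIO by 0.67 (-0.67 ± 0.084, limma adjusted p = 1.92e-05, n = 3 per group), Ptger4 lower by 0.35 (-0.35 ± 0.067, 0.000957) and Ptger2 higher by 0.37 ± 0.064 (0.000407). With the dimmer probe sets the differences were -0.28 for Ptger4 (adjusted p = 0.105) and -0.18 for Ptgs2 (0.129), neither of them called. With LPS 2 of 7 were called, where 25.1% of all genes were, and 5 did not overlap, against 40% of all genes. Ptger4 in SPIO-LPS stood at 61.6% of Silica-LPS (-0.70 ± 0.067, adjusted p = 1.39e-06). Alox5ap was 0.11 ± 0.038 higher (adjusted p = 0.0479), a call lost without array Silica-LPS 1, Silica-LPS 2, Silica-LPS 3, SPIO-LPS 1 or SPIO-LPS 2, at adjusted p from 0.051 to 0.139. It was also lost with the replicate block (0.0655), cyclic loess (0.0791), every probe set on its own (0.0681) and the compared groups alone (0.147). Ptger2 (0.18, adjusted p = 0.0521) was called without array Silica-LPS 1 (0.0223) or SPIO-LPS 2 (0.0483). It was also called with a variance trend (0.0223) and without the dimmest genes (0.0294). Ptges (-0.25, adjusted p = 0.0757) and Ptgs2 (-0.20, 0.0988) were lower without overlap and not called. Ptges was called with a variance trend (0.0324), without the dimmest genes (0.0481), with averaged probe sets (0.0145) and with the compared groups alone (0.00858). The second Ptgs2 probe set gave 0.05. Ltc4s (0.15) and Lta4h (-0.06) overlapped and were not called. These comparisons and those against CON and LPS share arrays.

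Markers of other cells moved with SPIO too. Of 9 neutrophil markers 7 were lower and 1 was higher in SPIO against CON, and 7 were lower in SPIO-LPS against LPS. The mean over the 9 markers was 8.59 to 8.70 on SPIO arrays against 9.05 to 9.11 on CON arrays. Of 9 fibroblast markers 4 were lower after SPIO and 5 in SPIO-LPS against LPS, and 4 were higher after silica. The fibroblast mean was 8.50 to 8.54 on SPIO, 8.66 to 8.70 on CON and 8.80 to 8.84 on Silica arrays. Of the 9 macrophage markers 6 were lower and 2 higher after SPIO. Beside these counts, 33.8% of all genes were called in SPIO against CON, 32.7% in SPIO-LPS against LPS and 4.02% in Silica against CON. As a sign of RNA quality, the 3′ minus 5′ signal of the control Gapdh in CON was 0.69 ± 0.039 (SD, n = 3), against 0.47 ± 0.026 in SPIO, 0.52 ± 0.050 in LPS and 0.40 ± 0.064 in SPIO-LPS. For Actb it was 0.59 ± 0.017 in CON and 0.66 ± 0.015 in SPIO, the other direction, and 0.38 ± 0.053 in LPS and 0.52 ± 0.014 in SPIO-LPS. The part of these differences in the results was not tested.

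The rest of the pathway was read from 58 genes in 7 lists by role, of which 48 were measured. In LPS against CON 13 were higher and 17 lower, a share of 62.5% called against 58.2% of all genes. The median difference was 0.04. In SPIO against CON 13 were higher and 13 lower, 54.2% against 33.8%, and in SPIO-LPS against LPS 8 were higher and 12 lower, 41.7% against 32.7%.

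Among 10 genes that release arachidonic acid, LPS raised 3 and lowered 3, where 22.2% of all genes were higher and 36.1% lower. Pla2g4a, the cytosolic phospholipase A2 that feeds both branches, rose from 8.18 to 10.45 (2.28 ± 0.053, 4.84-fold; limma adjusted p = 2.91e-15, n = 3 per group). Pla2g15, a phospholipase of the lysosome, fell to 16.4% of CON (-2.61 ± 0.061). Pla2g6 and Pla2g12a fell by 0.50 and 0.63. In SPIO-LPS against LPS 3 of the 10 were lower and none was higher, where 32.7% of all genes were called in either direction. Pla2g15 stood at -0.56 ± 0.061 there.

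Of 7 prostanoid synthases measured besides Ptges, 4 were lower and 2 higher after LPS, where 36.1% of all genes were lower and 22.2% higher. Hpgds, the prostaglandin D synthase of blood cells, fell to 32.6% of CON (-1.62 ± 0.058), Tbxas1, the thromboxane synthase, to 50.9%, and Cbr1, a carbonyl reductase that acts on prostaglandin E2, to 41.9%. Prxl2b, a prostaglandin F synthase, fell to 55.9%. After SPIO alone 4 were higher and 3 lower, each by less than 0.5 on the log2 scale, where 33.8% of all genes were called.

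Genes of prostaglandin transport and breakdown held the widest SPIO differences of these lists. Hpgd, the dehydrogenase that inactivates prostaglandin E2, read 8.64, 8.62 and 8.56 in CON and 5.46, 5.19 and 5.60 in LPS. That is a fall to 11% of CON (-3.19 ± 0.10; limma adjusted p = 1.78e-13, n = 3 per group). SPIO lowered it as well, to 41.3% of CON without LPS (-1.28 ± 0.10) and to 46.2% of LPS with it (-1.11 ± 0.10). SPIO-LPS arrays (4.51, 4.09 and 4.32) were the lowest of all 18 for Hpgd. Their mean of 4.31 lay near the lower quartile of the arrays (4.11 to 4.31). The size of the SPIO difference with LPS is therefore uncertain.

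The reductases moved the other way after SPIO. Ptgr1, which reduces a breakdown product of prostaglandins and also acts on leukotriene B4, was 0.94 ± 0.060 higher in SPIO against CON and 1.44 ± 0.060 higher in SPIO-LPS against LPS, while LPS alone left it uncalled. Cbr3, a second carbonyl reductase, fell after LPS to 34.3% of CON. SPIO-LPS arrays (9.48, 9.33 and 9.51) stood close to CON (9.56, 9.49 and 9.54), at 2.74-fold LPS (1.45 ± 0.055). Without LPS, Cbr3 was also higher after SPIO, by 0.55 ± 0.055 (limma adjusted p = 1.13e-06). Ptgr2 was 0.55 ± 0.18 higher after SPIO, a call lost without array CON 1, CON 2, SPIO 2 or SPIO 3, with adjusted p from 0.0541 to 0.0796. Ptgr2 fell by 1.59 after LPS. Slco2a1, a prostaglandin uptake carrier, was 0.57 higher after LPS and 0.55 lower in SPIO-LPS against LPS (-0.55 ± 0.070). After SPIO alone Slco2a1 was lower as well (-0.45 ± 0.070).

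Among 7 other prostanoid receptors, Ptgir was called higher after LPS and after SPIO. The gene of the prostacyclin receptor, it read 6.31, 6.44 and 6.54 in CON, 7.42, 7.62 and 7.54 in SPIO, 8.40, 8.18 and 8.39 in LPS and 8.98 to 9.18 in SPIO-LPS. These 4 groups did not overlap. It rose by 1.89 ± 0.078 with LPS, by 1.10 ± 0.078 with SPIO and by 0.73 ± 0.078 in SPIO-LPS against LPS (limma adjusted p = 2.42e-06, n = 3 per group). Ptger3, the gene of receptor EP3, was dim, with means of 3.90 in CON, 3.05 in LPS and 3.37 in SPIO, below the lower quartile of the arrays (4.11 to 4.31). It was called lower in both comparisons, and the size of its differences is uncertain at that level. The SPIO call was lost without array CON 1, SPIO 1 or SPIO 3 (adjusted p from 0.0523 to 0.0576).

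In the leukotriene arm 8 partner, export and breakdown genes were measured. LPS lowered 5 of them, where 36.1% of all genes were lower, among them Cotl1 (-0.92 ± 0.042), whose product binds 5-lipoxygenase, Mgst2 (-0.93 ± 0.059), a second enzyme able to make leukotriene C4, and Ggt5 (-0.62 ± 0.12), which trims that product. The exporter Abcc1 rose, by 0.54 ± 0.052. SPIO raised Mgst2 by 0.74 both without and with LPS, 1.67-fold each time. Abcc1 was 0.86 ± 0.052 higher in SPIO-LPS against LPS and 0.45 ± 0.052 higher after SPIO alone. Ggt5 fell by 0.86 after SPIO, and Dpep1, a dipeptidase that acts after it, fell by 0.65 without and 0.59 with LPS.

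Of the leukotriene and lipoxin receptors, 4 were measured and LPS raised 3, where 22.2% of all genes were higher. Cysltr2, named here for its low signal, was among those raised. Its means were 3.51 in CON and 3.94 in LPS, below the lower quartile of the arrays (4.11 to 4.31). Fpr2, a formyl peptide receptor that also binds lipoxin A4, rose from 7.18 to 12.83, or 50.2-fold (5.65 ± 0.053; limma adjusted p = 2.38e-19, n = 3 per group). Cysltr1, a receptor of cysteinyl leukotrienes, rose by 0.62 ± 0.067 and was 0.56 lower in SPIO-LPS than in LPS (-0.56 ± 0.067). Of 7 other lipoxygenases and epoxide hydrolases, Ephx1 fell by 0.51 after LPS, by 0.66 after SPIO and by 0.66 in SPIO-LPS against LPS.

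**Figure D5:**
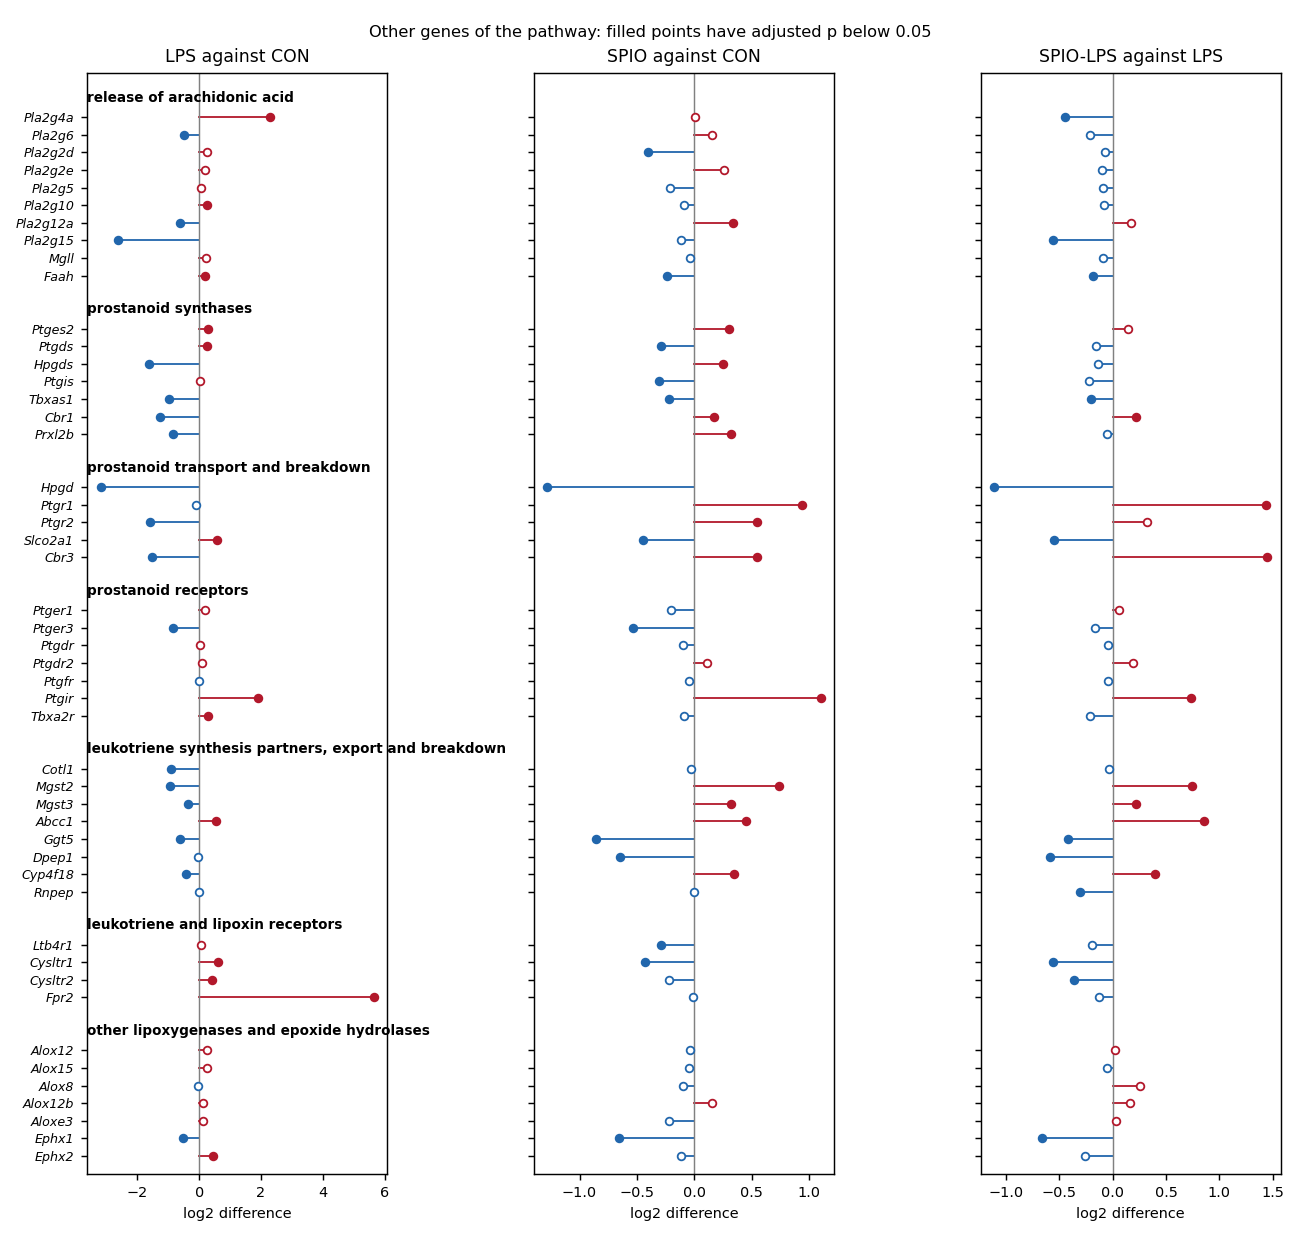
Rows are the 48 other pathway genes by role, and points give the log2 difference (horizontal axis, its own range in each panel) in LPS against CON, SPIO against CON and SPIO-LPS against LPS, filled where the adjusted p was below 0.05. Fpr2 (5.65) and Hpgd (-3.19) mark the ends of the LPS panel, and Cbr3 (1.45) and Ptgr1 (1.44) the upper end of the panel of SPIO-LPS against LPS.

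Silica called few of the 48 genes: 3 higher in Silica against CON (6.25% of the 48, against 4.02% of all genes) and 3 higher and 3 lower in Silica-LPS against LPS (12.5% against 2.86%). Cyp4f18, which oxidises leukotriene B4, was 0.54 ± 0.062 higher in Silica-LPS against LPS (limma adjusted p = 0.000319, n = 3 per group). Chosen after their values were seen because the counts are small, the genes called in Silica against CON were Cyp4f18 (0.45), Mgst2 (0.32) and Fpr2 (0.28). In Silica-LPS against LPS the others were Mgst2 (0.32), Cbr3 (0.21), Slco2a1 (-0.36), Pla2g15 (-0.33) and Hpgds (-0.24). Cbr3 and Hpgds were near the threshold (limma adjusted p = 0.049 and 0.038). With any 1 array of these groups left out, the count called in Silica-LPS against LPS fell from 6 to 3 or 4.

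The genes whose signals followed those of the 7 most closely were ranked by Pearson's r over the 18 arrays, among 2008 genes with a group mean of at least 7 and group means at least 1 apart. The arrays share their groups, so an r mostly reflects the presence of LPS, and it is given as a description. For Ptgs2 these were Ehd1 (0.997), Il1b (0.996) and Epsti1 (0.996), and 495 genes lay above 0.95. For Ptges they were Trafd1 (0.999), Dhx58 (0.998) and Zup1 (0.998), with 570 genes above 0.95. Ptger2 was followed by Nfs1 (0.993), Fbxo9 (0.992) and Mpv17 (0.992), and Alox5ap by Ndufa6, Hacd4 and Arhgap45 (0.997 each).

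Ptger4 and Ltc4s had few close matches. For Ptger4 the nearest were Dusp1 (0.982), a phosphatase of MAP kinases, Il4ra (0.977), a chain of the interleukin-4 receptor, and Evi2a (0.975), with 20 genes above 0.95. For Ltc4s they were Fam118b (0.952), Havcr2 (0.948) and Pygl (0.945), and 1 gene exceeded 0.95. Lta4h was not ranked, since its group means spanned 0.97.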

How the data were processed

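RNA of 18 macrophage cultures was measured on Affymetrix arrays, 1 per culture. The authors deposited a log2 signal for each probe set, made with RMA per the submitters' processing notes (settings: not given in the sources used here). Probe sets were named from the platform annotation, with symbols updated by gene identifier. A gene was represented by its brightest probe set on average, which left 12393 genes.

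All 18 arrays entered a linear model of the 6 group means in R 4.3.3 with limma 3.58.1 (lmFit, eBayes), with 11 contrasts and Benjamini-Hochberg adjustment over all genes in each. Errors of differences are the model's SE. Replicate numbers did not pair arrays: deviations of same-numbered arrays correlated at -0.31 to 0.19. Precision is limited by the number of arrays. The procedure was tested on simulated data.

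The genes, lists and tests were chosen with earlier results of these data known. Named were all members, and pathway genes called with a difference of at least 0.5, at most 4 per list and comparison. Promoters came from RefSeq (GRCm38.p6). Alternatives tried are in the closing section. Each other probe set of a gene, and the pathway genes under settings besides cyclic loess, were added after the data were seen.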

Additional observations from a re-analysis of the deposited data

Results flagged for a closer look

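The response to LPS differed after SPIO from that after plain medium, by the interaction test, in 2 of the 7 genes and in 8 of the 48 other pathway genes (limma, adjusted p below 0.05 over all genes, where 8.8% of all genes were called). In Ptger4 the rise was smaller (-0.53 ± 0.095, adjusted p = 0.00152) and in Ptger2 the fall was deeper (-0.39 ± 0.090, 0.0106). Pla2g4a rose less (-0.46 ± 0.076, 0.000819), while Pla2g15 (-0.45 ± 0.087, 0.0032), Hpgds (-0.40 ± 0.082, 0.00526) and Prxl2b (-0.37 ± 0.093, 0.0187) fell further. Hpgds and Prxl2b fell from a higher level, by 0.25 and 0.32 in SPIO against CON. Neither was called in SPIO-LPS against LPS (-0.14 and -0.05). Rnpep, an aminopeptidase, gave -0.31 ± 0.064 (0.00549). Cbr3 fell less (0.90 ± 0.077, 1.79e-06), Abcc1 rose more (0.40 ± 0.074, 0.00211), and Ptgr1, uncalled with LPS alone, gave 0.50 ± 0.084 (0.00103).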

How the results depend on the processing

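The 7 calls in each LPS comparison (against CON, Silica or SPIO) held under each of these alternatives, and so did the 5 in SPIO against CON except for 4 with averaged probe sets: the replicate block, the compared groups alone, a variance trend, a filter on dim genes, probe sets taken singly or averaged, cyclic loess, array weights and each array left out. Silica against CON gave 3 called genes with a variance trend and robust prior, 2 without the dimmest 33.3% of genes and 2 with array weights, and 0 to 1 with an array left out. Silica-LPS against LPS gave 1 with the trend, SPIO-LPS against LPS 2 with only the groups compared, and the SPIO interaction 4 without the dimmest genes. SPIO-LPS against Silica-LPS gave 1 with the replicate block, which changed no other count of the 7 by over 1.5 times, 4 with the trend, 4 without the dimmest genes, 1 with cyclic loess, 1 with every probe set on its own and 1 to 2 with an array left out. Other probe sets turned the sign of Lta4h (0.25 with LPS, -0.03 with SPIO, 0.13 in Silica-LPS against Silica, 0.24 in SPIO-LPS against SPIO) and of Ptger4 with SPIO (0.02). Besides the other probe sets, 14 of 77 differences changed their call under some setting.

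Of the other pathway genes, Silica against CON called 5 with the trend, 5 without the dimmest genes, 6 with array weights and 1 with only the groups compared. Silica-LPS against LPS called 1 with only the groups compared and 3 to 4 with an array left out. Of 94 named pathway differences, 92 kept their direction and call throughout. The cause of these changes was not tested.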
